A study of Mus musculus with 4 samples.

Results

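The 38 genes described here encode the machinery of cell division: mitotic kinases, cyclins and the enzymes that degrade them, the spindle checkpoint, the centromere and kinetochore, the chromosomal passenger complex, the spindle, the cytokinesis apparatus and mitotic chromosome proteins. They were chosen by symbol, and all 38 are among the 27998 genes of the count tables. The tumours came from 4 Atoh1-cre:SmoM2 littermates at postnatal day 20. In that strain Cre under Atoh1 switches on SmoM2, an always-active Smoothened, in precursors of cerebellar granule neurons, and medulloblastoma of the Sonic hedgehog (SHH) type forms in the cerebellum. All mice carry the same alleles, have tumours and received no treatment that the labels name, and there is no tumour-free control. Each tumour gave 1 10x Chromium 3' library (mice 1 to 4), so every comparison is between cells of the same mice, with the mouse as the replicate.

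As background, a dividing cell builds a bipolar spindle in mitosis and attaches each chromosome to it through a kinetochore, which assembles on centromeric chromatin. The spindle checkpoint holds back the anaphase-promoting complex, the ubiquitin ligase that destroys cyclin B and securin, until all chromosomes are attached. Genes of this machinery are transcribed late in the cell cycle, and SHH signalling drives division of granule neuron precursors.

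After filtering, 4122 cells remained of 5670 barcodes, 704 to 1364 per mouse, with a median of 1727 to 2564 UMIs (unique molecular identifiers, counted transcripts) per cell and mouse. The members held 53684 UMIs in these cells, 52.2 of every 10000. 20 barcodes occurred in more than 1 library. A doublet caller marked 0.363% of cells, a rate at which it is taken not to have worked, so doublets remain. Clusters were drawn without the members and without the other cell cycle genes listed for this report, and were named from marker lists. Progenitor-like granule cells numbered 3213, differentiating granule cells 519, astroglia-like cells 180, oligodendrocyte-lineage-like cells 168 and myeloid-like cells 42. Clusters led by mitotic genes, members such as Cdc20 and Top2a among their leading genes, still formed within the progenitor-like class. The sort for living cells and the dissociation can set these numbers. 1 progenitor-like cluster of 791 cells was low in the nuclear RNA Malat1 (median 8.29 UMIs per 10000, against 115.4 over the progenitor-like class) and in depth (median 1100 UMIs).

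Each progenitor-like cell was given a state from 37 genes of G2 and mitosis and 43 genes of S phase, none of them a member. A cell was put in the G2M state (618 cells) or the S state (696 cells) where the higher of its 2 standardised scores passed 0.2, and in the non-cycling state (1349 cells) where neither score passed 0. The name non-cycling means only that. Cells in G1, the phase between mitosis and S phase, were not told apart from cells that have left the cycle. The other 550 cells lay between the limits and were left out. The limit of 0.2 was chosen after seeing the data, and 247 cells (7.69%) had a score within 0.05 of it. The state genes are of the same phases as the members and were read in the same cells. The states therefore sort cells along the cycle, and what is measured is how far and in what order each member follows. Median depth was 2921 UMIs in G2M cells, 2905 in S cells and 1700 in non-cycling cells, and levels below are per 10000 UMIs. They are not corrected for transcript length and need no such correction in 3' libraries that count molecules, but capture differs between genes, so levels are compared between cells and not between genes.

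The promoters are shown first, because the members' order of rise between S phase and mitosis is a main result and these are the genes at both ends of it. Sequences are from RefSeq for GRCm38.p6, the 150 bases before the annotated start, 5′ to 3′ on the gene's strand. Ensembl gene records place the start elsewhere. It lies inside the printed stretch for Bub3 (131560222), Cenpa (30666777), Ube2c (164769898), Ccnb1 (100786570), Hjurp (88277633) and Cdc20 (118437352). By those records part of each of these stretches, and nearly all of Bub3's, is within the gene. Capitals mark CCAAT, the box bound by NF-Y, and TTTGAA or TTCGAA, the core of the cell cycle genes homology region (CHR) bound by the DREAM complex, searched on both strands. The 5 members with a promoter in the table and the largest G2M over S difference are given first, then the 3 with the smallest. Cdc20, chr4:118437344-118437493, minus strand, encodes the activator of the anaphase-promoting complex. Plk1, chr7:122159285-122159434, plus strand, encodes polo-like kinase. Cenpa, chr5:30666736-30666885, plus strand, encodes the centromeric histone H3 variant. Ube2c, chr2:164769779-164769928, plus strand, encodes the ubiquitin-conjugating enzyme of the anaphase-promoting complex. Ccnb1, chr13:100786487-100786636, minus strand, encodes cyclin B1. Hjurp, chr1:88277580-88277729, minus strand, encodes the chaperone that loads Cenpa. Top2a, chr11:99024190-99024339, minus strand, encodes topoisomerase II alpha. Bub3, chr7:131560220-131560369, plus strand, encodes a checkpoint protein that binds kinetochores.
Cdc20: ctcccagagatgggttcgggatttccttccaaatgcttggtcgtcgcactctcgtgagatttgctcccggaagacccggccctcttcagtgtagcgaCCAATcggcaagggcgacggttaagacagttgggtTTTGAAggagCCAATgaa
Plk1: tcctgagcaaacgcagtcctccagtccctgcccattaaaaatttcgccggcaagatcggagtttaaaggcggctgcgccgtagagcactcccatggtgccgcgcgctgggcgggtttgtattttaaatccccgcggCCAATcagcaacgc
Cenpa: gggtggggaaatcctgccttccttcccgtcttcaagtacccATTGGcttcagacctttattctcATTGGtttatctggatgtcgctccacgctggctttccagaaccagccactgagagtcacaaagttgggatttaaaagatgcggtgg
Ube2c: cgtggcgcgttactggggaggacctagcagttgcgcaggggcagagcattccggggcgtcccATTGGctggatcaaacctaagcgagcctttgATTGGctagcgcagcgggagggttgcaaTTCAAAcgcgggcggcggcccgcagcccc
Ccnb1: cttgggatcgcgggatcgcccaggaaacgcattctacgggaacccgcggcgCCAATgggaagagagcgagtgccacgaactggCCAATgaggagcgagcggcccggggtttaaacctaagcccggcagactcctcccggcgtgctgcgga
Hjurp: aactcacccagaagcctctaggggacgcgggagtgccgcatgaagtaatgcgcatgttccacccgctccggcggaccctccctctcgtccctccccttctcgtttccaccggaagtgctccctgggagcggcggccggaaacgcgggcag
Top2a: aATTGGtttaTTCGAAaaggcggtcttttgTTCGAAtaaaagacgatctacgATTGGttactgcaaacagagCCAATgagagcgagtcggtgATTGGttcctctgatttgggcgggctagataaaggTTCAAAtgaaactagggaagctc
Bub3: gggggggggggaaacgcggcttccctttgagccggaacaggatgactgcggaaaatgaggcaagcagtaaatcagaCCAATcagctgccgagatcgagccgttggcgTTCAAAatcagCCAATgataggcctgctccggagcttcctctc

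Over the full window of the table, 250 bases before to 50 after the start, 32 of the 38 members had a promoter. CCAAT was present in 26 of the 32 (81.2%), against 39.03% of 17491 promoters of protein-coding genes. A CHR core was present in 26 of 32 (81.2%), against 18.2%, and both motifs together in 24 of 32 (75.0%), against 7.43%. 2 CCAAT boxes on 1 strand whose first bases lie 31 to 33 bases apart were found in 7 of 32 members (21.9%) and in 1.11% of coding promoters. Among the members with a G2M over S difference above 2 log2 units, 12 of 15 held both motifs, and among the others 12 of 17. In the printed stretches Cdc20 and Ube2c have 2 CCAAT boxes and 1 CHR core, as does Bub3, and Top2a has 4 CCAAT boxes and 3 CHR cores. Cenpa and Ccnb1 have 2 CCAAT boxes and Plk1 has 1, all with 0 CHR cores, and Hjurp has neither motif. Over the full window Plk1, Cenpa and Hjurp have 1 CHR core each and Ccnb1 has 0, and Hjurp has 1 CCAAT box. A match is a run of letters and not a shown binding site, and the first row of a gene was used where the table has several.

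In progenitor-like cells all 38 members were higher in the G2M state than in the non-cycling state (edgeR quasi-likelihood test, Benjamini-Hochberg adjusted p under 0.05), where 13% of 6231 genes tested were called higher and 11.3% lower. Plk1, Aspm, Bub1b, Ttk, Anln and Ect2 did not pass the filter on low counts when S and non-cycling cells were compared. They entered here through their G2M counts, so for these 6 a call of higher was close to fixed in advance. The other 32 were all called higher as well. The median difference was 3.28 log2 units over the members and -0.02 over all genes tested. For each member the lowest of the 4 mice in G2M cells lay above the highest of the 4 in non-cycling cells. How common such a separation is over all genes was not counted. Summed over the members, G2M cells held 131.0, 149.2, 131.2 and 144.4 UMIs per 10000 in mice 1 to 4. S cells held 43.3, 39.1, 39.8 and 43.0, and non-cycling cells 15.02, 16.2, 14.0 and 17.4. Standard errors below are worked back from the test and are not a spread over mice.

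**Figure D1:**
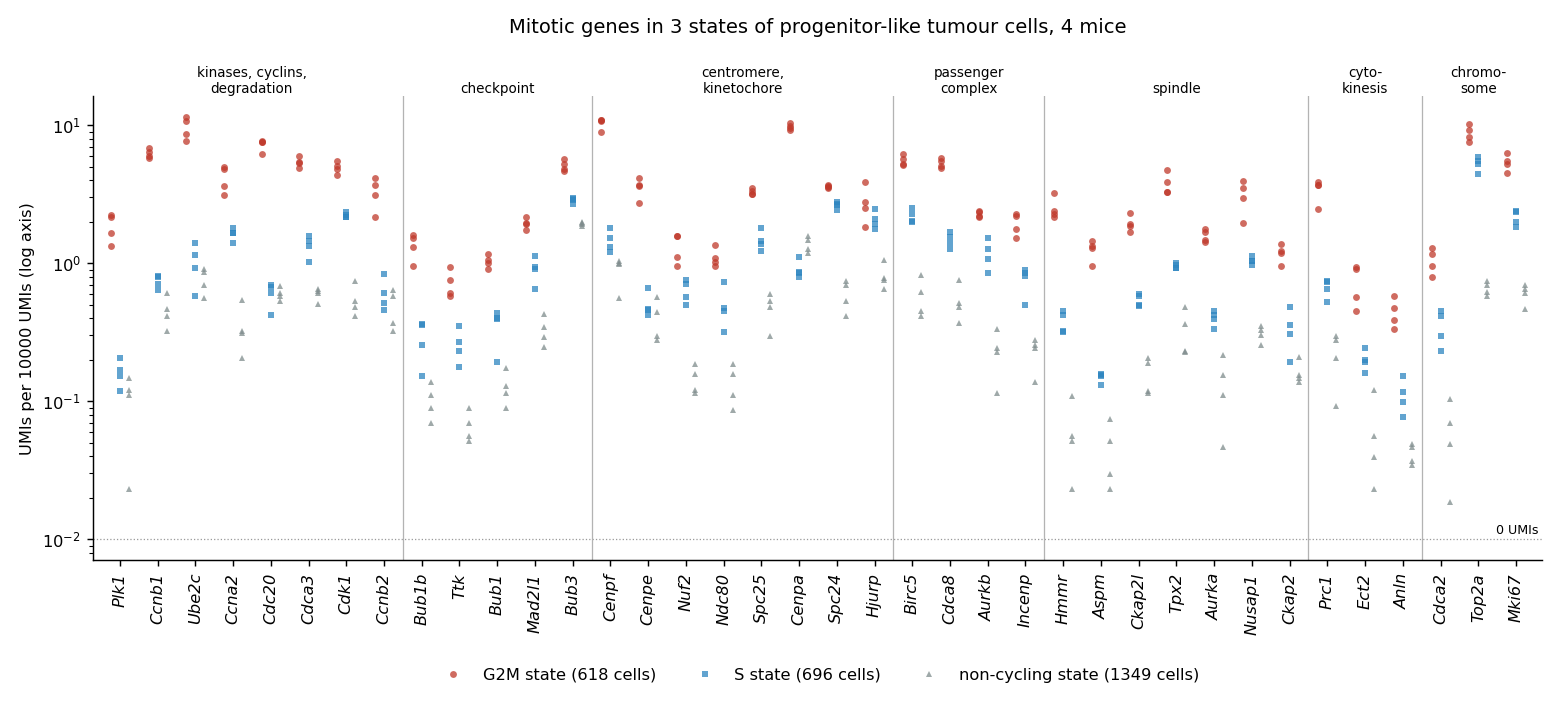
UMIs of each member per 10000 UMIs (log axis) in the G2M, S and non-cycling states of progenitor-like cells, 1 point per mouse and state, with members grouped by role and ordered by their G2M over non-cycling difference. In every member the 4 G2M points lie above the 4 non-cycling points, and in Bub3, Spc24, Hjurp and Top2a the S points lie closer to the G2M points than in Cdc20, Plk1 or Cenpa.

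The kinases, cyclins and degradation enzymes (8 members) rose by 2.75 to 4.07 log2 units. Plk1 had 2.16, 2.24, 1.34 and 1.65 UMIs per 10000 in the G2M cells of mice 1 to 4, against 0.148, 0.121, 0.0231 and 0.111 in non-cycling cells. That is a difference of 4.07 ± 0.20 log2 units (SE, n = 4 mice; edgeR adjusted p = 4.79e-33), and the lowest G2M mouse stood far above the highest non-cycling mouse. Ccnb1 had 5.80, 6.40, 5.95 and 6.84 in G2M cells, against 0.414, 0.467, 0.324 and 0.612 in non-cycling cells, a difference of 3.76 ± 0.11 (edgeR adjusted p = 3.65e-50). Its 4 mice lay close together in G2M cells. Ccnb2, the other mitotic cyclin B, had 3.71, 4.12, 2.18 and 3.11 in G2M cells, against 0.582, 0.640, 0.324 and 0.371 in non-cycling cells. It had the smallest rise of this group, 2.75 ± 0.12 (edgeR adjusted p = 3.48e-36), with mouse 3 lowest in both states. Ube2c (3.65 ± 0.09), Ccna2, which encodes cyclin A2 (3.64 ± 0.13), Cdc20 (3.62 ± 0.10), Cdca3 (3.20 ± 0.11) and Cdk1, the kinase that these cyclins activate (3.09 ± 0.11), lay between.

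The 5 checkpoint members rose by 1.38 to 3.74 log2 units. Bub1b, which encodes BubR1, a part of the checkpoint complex that inhibits Cdc20, had 1.52, 1.61, 0.960 and 1.32 UMIs per 10000 in G2M cells, against 0.0888, 0.138, 0.0694 and 0.111 in non-cycling cells (3.74 ± 0.22, edgeR adjusted p = 1.29e-27). Ttk, the kinase Mps1 that starts the checkpoint signal, had 0.610, 0.934, 0.576 and 0.750 in G2M cells, against 0.0888, 0.0519, 0.0694 and 0.0557 in non-cycling cells (3.30 ± 0.28, edgeR adjusted p = 6.01e-18). Both had few UMIs outside G2M. Bub3 had 4.69, 5.25, 5.66 and 4.80 in G2M cells, against 1.97, 1.87, 1.94 and 1.91 in non-cycling cells. Its rise of 1.38 ± 0.09 (edgeR adjusted p = 4.30e-26) was the smallest of all 38 members. Non-cycling cells kept a level of it that differed little between mice. Bub1, a kinase at the kinetochore (3.07 ± 0.23), and Mad2l1, which encodes Mad2 (2.58 ± 0.16), lay between.

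The 8 centromere and kinetochore members rose by 1.72 to 3.45 log2 units. Cenpf, a large protein of the outer kinetochore, had 8.92, 10.9, 10.7 and 10.9 UMIs per 10000 in G2M cells, against 0.987, 1.00, 0.555 and 1.04 in non-cycling cells (3.45 ± 0.09, edgeR adjusted p = 2.78e-54). Cenpe, a kinesin that carries chromosomes along the spindle, had 3.71, 3.63, 2.72 and 4.14 in G2M cells, against 0.444, 0.571, 0.278 and 0.297 in non-cycling cells (3.12 ± 0.13, edgeR adjusted p = 1.23e-38). In both genes mouse 3 was lowest in non-cycling cells. Hjurp had 1.83, 2.52, 3.90 and 2.77 in G2M cells, against 0.651, 0.761, 1.06 and 0.779 in non-cycling cells, the smallest rise of the group at 1.72 ± 0.12 (edgeR adjusted p = 2.72e-23). The 4 members of the Ndc80 complex, which binds microtubules at the kinetochore, rose by 3.10 ± 0.21 (Nuf2), 3.01 ± 0.23 (Ndc80), 2.86 ± 0.13 (Spc25) and 2.63 ± 0.12 (Spc24). Cenpa rose by 2.85 ± 0.08.

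The passenger complex, in which Aurkb is the kinase and the other three place it on chromosomes and midzone, moved within a narrow range of 2.98 to 3.28 log2 units. Birc5 (survivin) had 5.65, 5.23, 5.15 and 6.17 UMIs per 10000 in G2M cells, against 0.454, 0.623, 0.416 and 0.816 in non-cycling cells (3.28 ± 0.11, edgeR adjusted p = 1.56e-45). Cdca8 (borealin) had 4.86, 5.75, 5.02 and 5.49 in G2M cells, against 0.484, 0.519, 0.370 and 0.761 in non-cycling cells (3.28 ± 0.11, edgeR adjusted p = 5.73e-45). Incenp, the scaffold, had 1.53, 2.28, 1.76 and 2.21 in G2M cells, against 0.257, 0.277, 0.139 and 0.241 in non-cycling cells (2.98 ± 0.17, edgeR adjusted p = 7.64e-29). Aurkb was at 3.27 ± 0.17.

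The spindle members (7) held the largest rise of all. Hmmr, a microtubule-binding protein of the spindle, had 2.29, 3.21, 2.18 and 2.38 UMIs per 10000 in G2M cells, against 0.109, 0.0519, 0.0231 and 0.0557 in non-cycling cells (5.11 ± 0.21, edgeR adjusted p = 1.96e-39). 45.6% of G2M cells had a UMI of it and 1.26% of non-cycling cells, at the depths given above, while 2.38% of myeloid-like cells (1 of 42, median 1230.5 UMIs) had one. Aspm, a spindle pole protein, had 0.961, 1.45, 1.28 and 1.33 in G2M cells, against 0.0296, 0.0519, 0.0231 and 0.0742 in non-cycling cells (4.73 ± 0.28, edgeR adjusted p = 2.51e-28). Ckap2, a microtubule-associated protein, had 1.18, 1.39, 0.960 and 1.23 in G2M cells, against 0.138, 0.156, 0.208 and 0.148 in non-cycling cells, the smallest rise of the group (2.92 ± 0.21, edgeR adjusted p = 3.39e-22). Ckap2l (3.64 ± 0.19), Tpx2, which activates Aurka (3.56 ± 0.14), Aurka, the spindle pole kinase (3.40 ± 0.20), and Nusap1, a microtubule bundler (3.39 ± 0.14), lay between.

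Of the 3 cytokinesis members, Prc1, which bundles microtubules of the midzone, had 2.46, 3.71, 3.68 and 3.86 UMIs per 10000 in G2M cells, against 0.296, 0.277, 0.0925 and 0.204 in non-cycling cells (3.77 ± 0.15, edgeR adjusted p = 3.25e-39). Anln, which encodes anillin of the cleavage furrow, had the fewest UMIs of the members in G2M cells, with 0.333, 0.478, 0.576 and 0.387 in G2M cells, against 0.0493, 0.0346, 0.0463 and 0.0371 in non-cycling cells (3.23 ± 0.36, edgeR adjusted p = 1.73e-12). Ect2, which activates the furrow GTPase RhoA, rose by 3.53 ± 0.29. Of the 3 chromosome members, Cdca2 (Repo-Man, a phosphatase subunit on chromatin) had 0.961, 1.17, 0.800 and 1.28 in G2M cells, against 0.0493, 0.104, 0.0694 and 0.0186 in non-cycling cells (4.11 ± 0.27, edgeR adjusted p = 1.35e-24). Mki67, the Ki-67 antigen that coats mitotic chromosomes, had 4.53, 6.30, 5.25 and 5.51 in G2M cells, against 0.691, 0.467, 0.648 and 0.612 in non-cycling cells (3.10 ± 0.11, edgeR adjusted p = 1.57e-43). Top2a rose by 3.69 ± 0.10, and its exons overlap those of Gm23451 on the same strand, so its counts may be split. In each of these genes the groups of mice did not overlap.

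Set against S cells, G2M cells were also higher in all 38 members (7.98% of 6254 genes were called higher and 6.84% lower), but by differences that spread widely, with a median of 1.83 log2 units over the members and 0.00 over all genes tested. The 6 members that entered the test against non-cycling cells through their G2M counts did so here too. The order had Cdc20 at the top (3.62 ± 0.10 log2 units), followed by Plk1 (3.54 ± 0.19), Cenpa (3.52 ± 0.09), Ube2c (3.21 ± 0.09), Ccnb1 (3.16 ± 0.10) and Aspm (3.09 ± 0.22). Hjurp was at the bottom (0.42 ± 0.10, edgeR adjusted p = 0.000294), below Spc24 (0.50 ± 0.09), Top2a (0.74 ± 0.06) and Bub3 (0.86 ± 0.08). 16 members differed by more than 2 log2 units and 4 by less than 1. Some neighbours among the genes named here differed by less than either standard error of the pair. They were Cdc20 and Plk1, Plk1 and Cenpa, Ube2c and Ccnb1, Ccnb1 and Aspm, and Hjurp and Spc24. Hjurp is the one member whose mice overlapped here, and overlap was not counted over all genes. Its G2M cells held 1.83, 2.52, 3.90 and 2.77 UMIs per 10000, against 1.77, 2.08, 2.49 and 1.93 in S cells, and it was not called without mouse 4 (0.33), without the mouse as a block (0.46), by DESeq2 (0.41), in cells thinned to 2000 UMIs (0.34) or with states from scanpy scores (0.0013, edgeR adjusted p = 0.998).

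**Figure D2:**
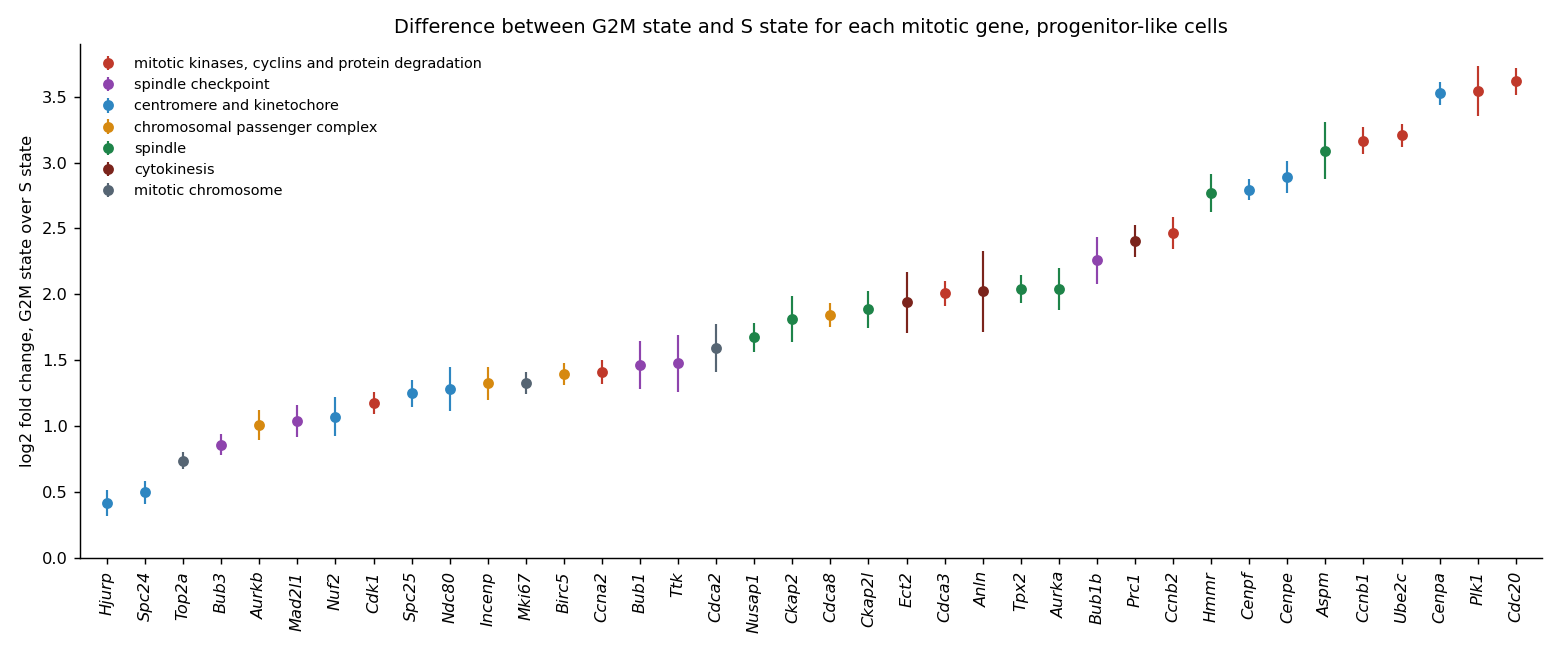
Log2 fold change of G2M state over S state for each member in progenitor-like cells, in ascending order, with the standard error worked back from the edgeR test (4 mice) and colours for the role groups. The values run from 0.42 for Hjurp to 3.62 for Cdc20, and kinases, cyclins and degradation enzymes fill 4 of the 6 highest places.

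Levels in S cells against non-cycling cells give the other side of that order. Of the 38 members, 32 passed the filter on low counts in this comparison, 28 were higher in S cells, 1 was lower and 3 were not called, where 11.2% of 6386 genes were called higher and 10.2% lower. Plk1, Aspm, Bub1b, Ttk, Anln and Ect2 were too rare in both states to be tested. Top2a differed most: 5.52, 5.26, 4.41 and 5.93 UMIs per 10000 in S cells, against 0.691, 0.623, 0.578 and 0.742 in non-cycling cells (2.95 ± 0.11, edgeR adjusted p = 7.59e-160). Cdca2 (2.58 ± 0.36), Hmmr (2.31 ± 0.34), Aurkb (2.29 ± 0.20), Ccna2 (2.27 ± 0.16) and Spc24 (2.14 ± 0.13) came next. By contrast Cdc20 was at 0.00 ± 0.19 (edgeR adjusted p = 0.998), with 0.672, 0.693, 0.422 and 0.604 in S cells and 0.533, 0.605, 0.578 and 0.686 in non-cycling cells. Ccnb2 (0.30 ± 0.19) and Cenpe (0.30 ± 0.21) were not called either. Ccnb1 (0.61 ± 0.19, edgeR adjusted p = 0.00815) and Ube2c (0.42 ± 0.15, edgeR adjusted p = 0.0254) were. Ccnb1 was not called without mouse 1 (0.47) or mouse 3 (0.52), and Ube2c was not without mouse 1 (0.31) or mouse 4 (0.37).

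Cenpa and its loading chaperone Hjurp lay at opposite ends. Cenpa had 9.94, 9.29, 10.4 and 9.61 UMIs per 10000 in G2M cells of mice 1 to 4, 0.788, 0.871, 1.11 and 0.849 in S cells, and 1.27, 1.19, 1.57 and 1.47 in non-cycling cells. It was the member that fell in S cells relative to non-cycling cells (-0.68 ± 0.14, edgeR adjusted p = 6.88e-06), and each non-cycling mouse lay above each S mouse. Hjurp, in contrast, was higher in S than in non-cycling cells (1.31 ± 0.13, edgeR adjusted p = 1.75e-23) and close to its G2M level. The Ndc80 complex was also split. Spc24 held 3.60, 3.58, 3.68 and 3.53 in G2M cells, against 2.70, 2.63, 2.80 and 2.43 in S cells (0.50 ± 0.09, edgeR adjusted p = 2.41e-07). Spc25 held 3.20, 3.34, 3.49 and 3.18 in G2M cells, against 1.46, 1.39, 1.80 and 1.23 in S cells (1.25 ± 0.10, edgeR adjusted p = 1.05e-32). The differences between members were not themselves tested. With states called from scanpy scores, which put 2011 progenitor-like cells in G2M, 18 members were higher in S cells and Cenpa was not called there (-0.30).

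By role, the median G2M over S difference was 2.81 log2 units for kinases, cyclins and degradation, 2.04 for the spindle, 2.02 for cytokinesis, 1.47 for the checkpoint, 1.36 for the passenger complex, 1.33 for the chromosome members and 1.27 for centromere and kinetochore. That last group was the most spread, from Hjurp at 0.42 to Cenpa at 3.52. Among 80 other mitotic genes of 4 lists in the files, 73 were tested in G2M against non-cycling cells, 58 were higher and 0 lower (edgeR, 13% of all genes higher). The kinetochore list had 22 of 23 higher, among them Casc5, a kinetochore scaffold (4.17 ± 0.17), and Ska1, a microtubule coupler (3.21 ± 0.24). The list of other checkpoint and anaphase-promoting complex genes had 9 of 18 higher, with the cohesin protectors Sgol2a (3.45 ± 0.19) and Sgol1 (3.25 ± 0.19) and the complex's inhibitor Fbxo5 (3.12 ± 0.21). Condensin, cohesin and separase genes were higher in 14 of 17, with Cdca5 (sororin) at 3.32 ± 0.30, and other spindle and cytokinesis genes in 13 of 15, with Cep55, an abscission protein, at 4.38 ± 0.39. Fam83d and Cit, of the same list, were at 4.15 ± 0.45 and 3.89 ± 0.35. Against S cells only 38 of 76 were higher and 3 lower (7.98% of all genes higher, 6.84% lower), and Cdca5 did not differ there by the test (0.15 ± 0.18, edgeR adjusted p = 0.670).

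Mice differed in how many progenitor-like cells were in the G2M state, 15.03%, 19.5%, 18.4% and 25.4% in mice 1 to 4. The summed members over all progenitor-like cells were 48.5, 58.8, 52.9 and 70.5 UMIs per 10000 in the same mice. Within the G2M state the spread was smaller, 138.9 ± 9.31 (SD, n = 4). Mouse 4 was thus highest in both the share and the class level, but not in the level per G2M cell, where mouse 2 was.

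Summed over the cells of each class, the members reached 26.0 UMIs per 10000 in differentiating granule cells, 39.6 in astroglia-like, 36.8 in oligodendrocyte-lineage-like and 13.5 in myeloid-like cells, against 58.2 in progenitor-like cells. In mouse 2 the astroglia-like cells were at 59.2, against 58.8 in progenitor-like cells, and in each other mouse and class the progenitor-like cells were higher. Cells thinned to 2000 UMIs gave the same order of classes for the share with at least 10 member UMIs. It was 11.6% of 285 differentiating cells, 26.3% of 76 astroglia-like, 15.6% of 64 oligodendrocyte-lineage-like and 0 of 11 myeloid-like cells (which allows up to 28.5% by the exact interval), against 38.3% of 1695 progenitor-like cells. The exact 95% binomial intervals were 8.11% to 15.9% for differentiating and 36.03% to 40.7% for progenitor-like cells, and cover counting error only. Without thinning the shares were 14.8% and 34.0%. Thinning left out 234 differentiating and 1518 progenitor-like cells.

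**Figure D3:**
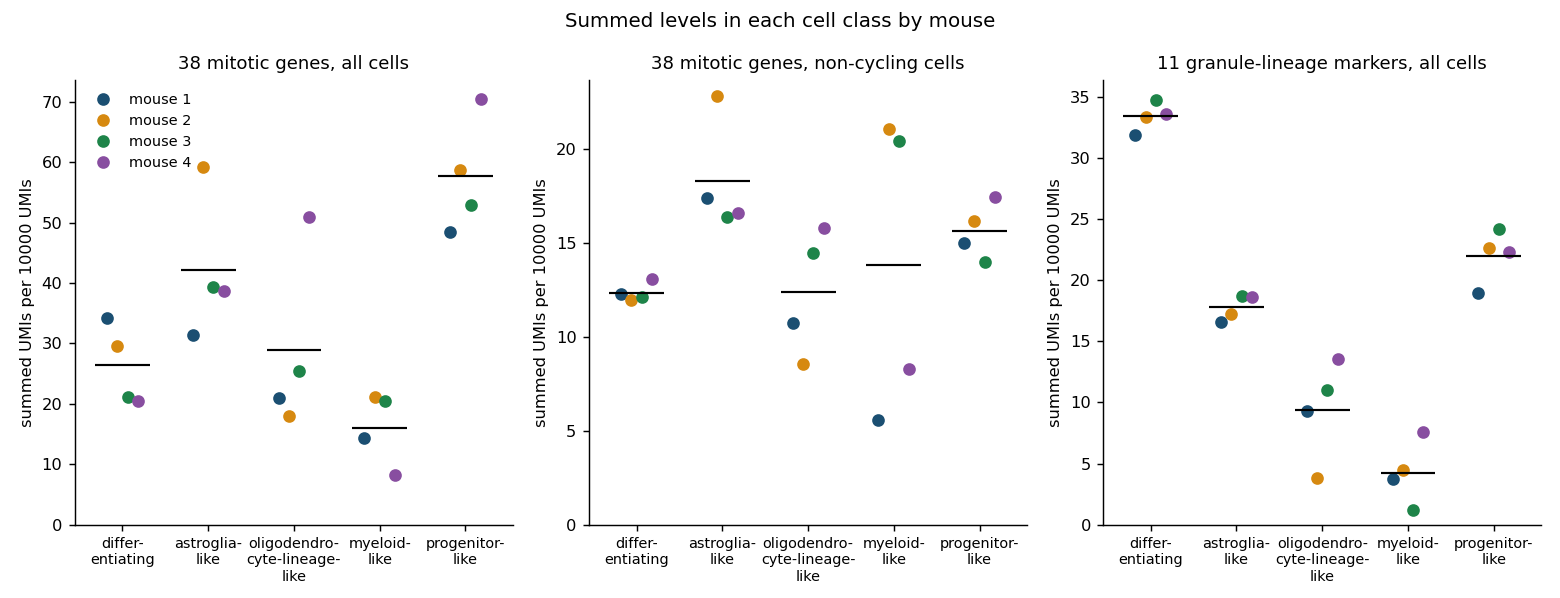
Summed UMIs per 10000 UMIs in each cell class, 1 point per mouse and a line at the mean of the 4 mice, for the 38 members in all cells (left), the members in non-cycling cells (middle) and 11 granule-lineage markers in all cells (right). Progenitor-like cells have the highest mean in the left panel, while in mouse 2 astroglia-like cells are at 59.2 and progenitor-like cells at 58.8, the classes lie between 5.56 and 22.8 in the middle panel, and granule-lineage markers are present in every class.

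Differentiating granule cells, which lead with genes of young neurons, were lower in 37 of 38 members (9.22% of 7591 genes were called lower and 9.26% higher), with a median of -1.33 log2 units over the members and -0.01 over all genes tested. In 27 members the mice of the 2 classes did not overlap, a count that was not made over all genes. Top2a had the smallest adjusted p, with 1.35, 1.34, 1.85 and 1.31 UMIs per 10000 in differentiating cells, against 3.56, 4.56, 3.56 and 5.34 in progenitor-like cells (-1.72 ± 0.12, edgeR adjusted p = 9.84e-25). Cdca3 (-1.57 ± 0.14) and Cdk1 (-1.45 ± 0.13) followed it in adjusted p, and Hmmr differed most (-1.98 ± 0.25), with 28 UMIs in differentiating cells and 658 in progenitor-like cells. Mki67 had 1.42, 0.714, 0.973 and 0.611 in differentiating cells, against 1.97, 2.42, 2.27 and 2.86 in progenitor-like cells (-1.53 ± 0.15, edgeR adjusted p = 1.08e-15). Bub3 was not called (-0.23 ± 0.10, edgeR adjusted p = 0.112), and its 4 values of 2.85, 3.23, 2.04 and 2.30 in differentiating cells overlap the 2.77, 3.15, 3.19 and 3.17 in progenitor-like cells. Hjurp was called at -0.43 ± 0.13 (edgeR adjusted p = 0.00862), but not without mouse 2 (-0.43) or mouse 4 (-0.26), nor under 5 other settings (-0.44 to -0.19). Mouse 4 bears on the whole comparison. Without it 28 members were called lower, and over all genes 492 of 7426 were, against 700 of 7591 with all mice. The difference of Ccnb1 was then -0.48 in place of -1.08 and that of Cenpa -0.68 in place of -1.11.

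The states were also compared one by one. They are cut from genes of the same phases as the members, so holding the state fixed takes away part of any difference by construction, and fewer members could be tested. 33 of 519 differentiating cells (6.36%) were in the G2M state, 14, 8, 0 and 11 in mice 1 to 4, against 618 of 3213 progenitor-like cells (19.2%). Between non-cycling cells of both classes, 21 members could be tested, 2 were lower and 19 were below 0 (7.1% of 5083 genes were called lower and 7.73% higher), with a median of -0.47. The 2 were Cenpa (-1.10 ± 0.22, edgeR adjusted p = 7.26e-05) and Cenpf (-0.66 ± 0.24, edgeR adjusted p = 0.0470). Cenpa stood at 1.06, 0.339, 0.808 and 0.534 UMIs per 10000 in non-cycling differentiating cells, against 1.27, 1.19, 1.57 and 1.47 in non-cycling progenitor-like cells, and the mice did not overlap. Between G2M cells of both classes in mice 1, 2 and 4, Top2a (-0.95 ± 0.23, edgeR adjusted p = 0.00866) and Cdca3 (-0.99 ± 0.27, edgeR adjusted p = 0.0306) were lower of 37 tested (0.321% of 4047 genes were called lower and 0.865% higher), with a median of -0.26. The few differentiating G2M cells differed by mouse, with 157.5, 160.6 and 64.8 summed member UMIs per 10000 in mice 1, 2 and 4, against 131.0, 149.2 and 144.4 in progenitor-like G2M cells. They carried markers of differentiating neurons at 37.8 UMIs per 10000, against 15.5 in progenitor-like G2M cells. The part of doublets in these cells was not tested. These within-state comparisons were added after seeing the data. With cell cycle scores removed by regression ahead of the clustering, 32 members were lower in the differentiating class (532 of 7751 genes were called lower). Top2a was then at -1.16, Hmmr at -0.95, Cenpa at -0.58 and Ccnb1 at -0.52, each nearer to 0 than with the main clusters. Anln (-1.47) and Bub3 (-0.24) were not nearer to 0.

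**Figure D4:**
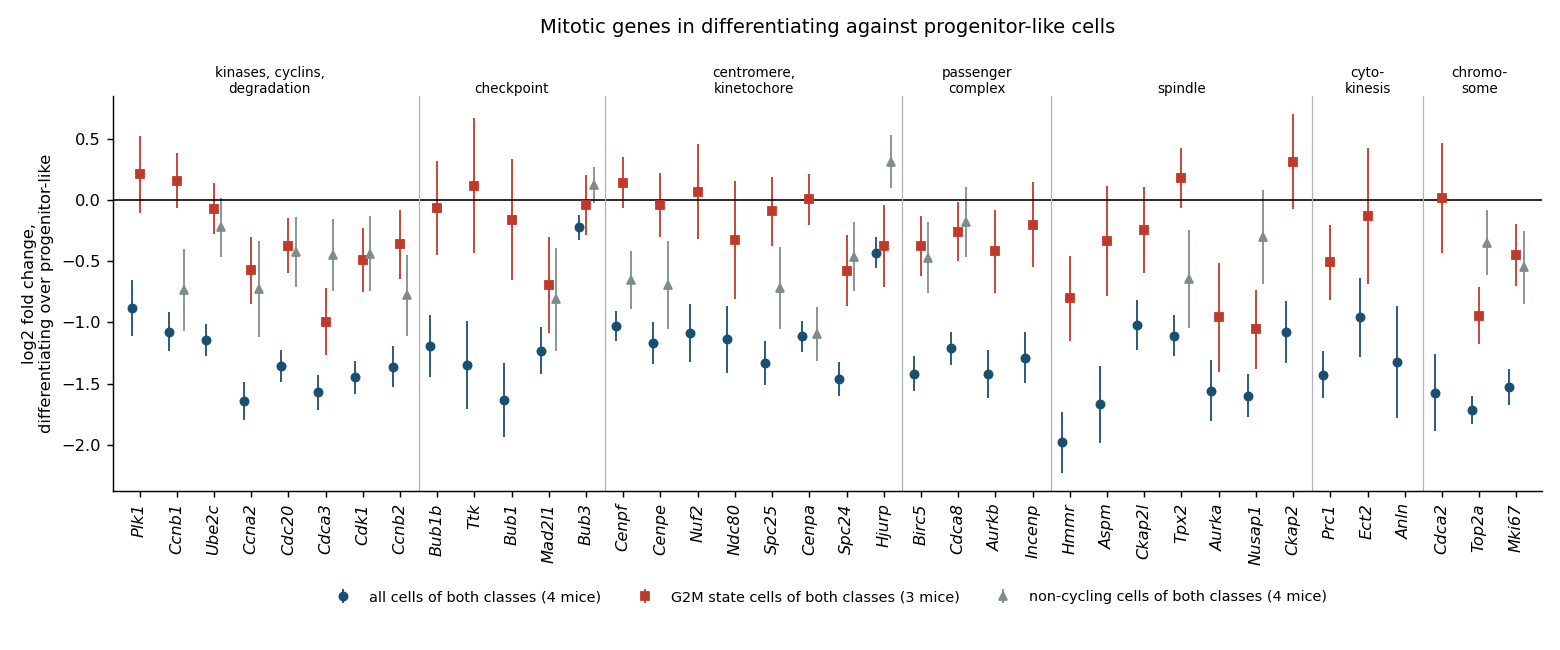
Log2 fold change of differentiating over progenitor-like cells for each member, with the standard error worked back from the edgeR test, for all cells (circles), cells of the G2M state (squares) and non-cycling cells (triangles, members that passed the filter). The circles lie below 0 in all 38 members, with Bub3 not called, while most squares and triangles are nearer to 0.

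Astroglia-like cells had 7 of 37 tested members lower (1.54% of 6959 genes were called lower and 3.55% higher), with a median of -0.53 log2 units over the members and -0.06 over all genes. The 7 were Top2a (-1.11 ± 0.17), Cenpe (-1.12 ± 0.27), Mki67 (-0.89 ± 0.20), Ccna2 (-0.85 ± 0.22), Hjurp (-0.78 ± 0.23), Cdca8 (-0.66 ± 0.20) and Cdca3 (-0.63 ± 0.20). Leaving out mouse 1 cut the count to 2, and leaving out mouse 4 to 0, where 7 were lower at an unadjusted p under 0.05, and DESeq2 called 0, with 8 lower unadjusted. The counts of all genes called lower fell as well, to 52, 20 and 23 in the same order, against 107 in the main fit. Prc1 (-0.01 ± 0.22) and Ube2c (-0.03 ± 0.15) were nearest to 0. The astroglia-like class was also low in Malat1, with a median of 14.6 UMIs per 10000, against 115.4 in progenitor-like cells. The Malat1 limit left too few mice for a fit of this class. The part of low Malat1 in its differences, among all cells or non-cycling cells, was therefore not tested. 22 astroglia-like cells (12.2%) were in the G2M state, 1, 7, 2 and 12 in mice 1 to 4. They held 107.1 member UMIs per 10000, at a median depth of 3744 UMIs against 1494.5 in non-cycling astroglia-like cells. Granule-lineage markers stood at 21.8 UMIs per 10000 in these G2M cells and at 14.8 in non-cycling astroglia-like cells, against 20.8 in progenitor-like G2M cells. Astroglia markers stood at 50.7 in them and at 116.4 in non-cycling astroglia-like cells. This sum is not particular to astroglia, as it stood at 308.8 in myeloid-like cells, against 90.1 over the astroglia-like class and 7.12 in progenitor-like cells. The part of doublets and free RNA in these values was not tested. Between non-cycling cells of both classes in mice 1, 2 and 4 (mouse 3 had too few), edgeR called 0 of 19 members lower (0 also at an unadjusted p under 0.05) and 1 higher, Ube2c (1.12 ± 0.34, edgeR adjusted p = 0.0304; 3.74% of genes were called higher and 1.53% lower).

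Oligodendrocyte-lineage-like cells, of which 126 led with markers of precursors and 42, 40 of them from mouse 4, with markers of oligodendrocytes, had 20 of 38 members lower (7.37% of 7354 genes were called lower and 9.68% higher). The median was -0.95 over the members and -0.09 over all genes. Top2a had the smallest adjusted p (-1.49 ± 0.24, edgeR adjusted p = 9.98e-07), followed by Cdca3 (-1.31 ± 0.27) and Ccna2 (-1.35 ± 0.29), and Aurkb differed most (-1.52 ± 0.36). The summed members varied over mice, with 20.9, 18.03, 25.5 and 51.0 UMIs per 10000 in mice 1 to 4, against 48.5, 58.8, 52.9 and 70.5 in progenitor-like cells. Without mouse 2 the count of members called lower was 9, and without mouse 4 it was 28. Over all genes 179 and 709 were called lower in those fits, against 542 with all mice. Of the 168 cells, 11 (6.55%) were in the G2M state, 7 of them in mouse 4, with 171.9 member UMIs per 10000 and a median depth of 4806 UMIs. Granule-lineage markers in those 11 cells stood at 12.99 UMIs per 10000, against 8.24 in non-cycling cells of the class. Markers of precursors and oligodendrocytes stood at 40.0 in them and at 100.1 in the non-cycling cells, which had a median depth of 1430.5 UMIs. The part of doublets and free RNA in these values was not tested. Among non-cycling cells of both classes 1 of 16 was lower, Cdc20 (-1.91 ± 0.63, edgeR adjusted p = 0.0313; 7.36% of genes were called lower and 11.1% higher).

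Myeloid-like cells are taken as the class that should hold least of the tumour's own division transcripts, though myeloid cells can divide. 0 of the 42 cells were in the G2M state, which allows a share of up to 8.41% by the exact 95% interval. Of 37 members tested, 18 were lower (10.7% of 6218 genes were called lower and 4.28% higher, and all genes had a median of -1.02), but 8 of the 38 members had 0 UMIs and 18 had 1 to 3 among the 70528 UMIs of the class. Mki67 had 0 UMIs, against 1928 in progenitor-like cells, at least 5.62-fold lower when set against 3 UMIs over the class. Aurkb, with 0 against 862, was at least 2.51-fold lower. Cdc20, with 1 UMI against 2031, had a ratio of 0.0563 (95% counting interval 0.00143 to 0.314), and Top2a, with 5 against 3493, one of 0.164 (0.0531 to 0.382). Leaving out mouse 1 gave 9 called members and leaving out mouse 4 gave 7. Over all genes 318 and 327 were called lower in those fits, against 663 with all mice. Between non-cycling cells of both classes, edgeR called 0 of 15 (9.8% of genes were called lower and 7.26% higher), with 1 lower at an unadjusted p under 0.05.

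Free RNA, released by broken cells and caught in every droplet, is a caveat for all of these low levels. Summed over the class, the members in myeloid-like cells were at 0.231 of the progenitor-like level and the granule-lineage markers, which myeloid cells lack, at 0.237. These 2 ratios were close in no single mouse. They were 0.298 for the members and 0.196 for the markers in mouse 1, 0.359 and 0.196 in mouse 2, 0.386 and 0.0497 in mouse 3, and 0.118 and 0.341 in mouse 4, from 35, 19, 17 and 24 member UMIs in myeloid-like cells. Without mouse 4 they were 0.324 and 0.159. In the other classes the members stood at 0.447 and the markers at 1.54 in differentiating, at 0.681 and 0.825 in astroglia-like, and at 0.633 and 0.483 in oligodendrocyte-lineage-like cells (0.385 and 0.318 there without mouse 4). The 1050 barcodes with fewer than 500 genes, left out above, held 40.6 member UMIs per 10000. Of the 35 member UMIs in myeloid-like cells of mouse 1, 13 were in 1 S cell and 10 in 1 cell between the states. Non-cycling progenitor-like cells, at 15.6, stood beside 10.6 in the 40 non-cycling myeloid-like cells (5.56 to 21.1 over the mice). The whole myeloid-like class was at 13.5 (8.30 to 21.1). How much of the level in non-cycling cells is their own was not tested.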

How the data were processed

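Tumours of 4 littermate mice gave 1 10x 3' library each. The authors deposited raw UMI counts for each gene in each barcode. The submitters' processing notes name Cell Ranger 2.0.2, mm10 and Seurat. Per the labels' protocols, tissue was dissociated with Accutase, red cells were lysed, and living cells were sorted with 7-AAD. Mouse 1's library went through 2 sequencing rounds. Library totals were 1679285 to 3801197 UMIs.

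Barcodes with at least 500 genes and at most 10% mitochondrial UMIs were kept, scrublet removed 15 as doublets, and the rest were clustered in scanpy 1.11.5 (2000 variable genes, 30 components, 15 neighbours) with 199 cell cycle genes, members included, and markers held out. The design text gives 4749 cells, where 4620 barcodes passed the gene limit and 4122 all filters. Counts were summed per mouse and class or state and tested in edgeR 4.0.16 (R 4.3.3; quasi-likelihood, TMM, filterByExpr, mouse as a block, Benjamini-Hochberg over all genes tested, limit 0.05). A mouse needed 10 cells on each side of a comparison, or 5 for myeloid-like and differentiating G2M cells. The steps were tested on simulated data. P-values rest on 4 littermates and on a dispersion that edgeR draws toward a value shared across genes. They therefore do not measure the spread of 1 gene between the mice alone.

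Same-numbered samples are cells of 1 mouse and 1 library, so the block follows the design. Their deviations correlated at 0.178 to 0.489 in the 4 granule comparisons, 0.0901 to 0.232 for astroglia-like, 0.120 to 0.194 for oligodendrocyte-lineage-like and 0.00548 to 0.0558 for myeloid-like cells. Members, gene lists and tests were chosen with earlier results of these data known. Values in every mouse are given per role for the largest and smallest G2M over non-cycling differences. In class comparisons, called members or those of smallest adjusted p are named, mostly with a difference or ratio and not by mouse. In the other lists up to 3 called genes with the largest difference are named, with the difference only. A gene that this rule names is not reported here. Top2a, Cenpa, Cdc20, Spc24, Spc25 and Bub3 are also given by mouse because of their place in the G2M over S order or an absent call, chosen after their values were seen. Alternatives were DESeq2 1.42.0, no TMM, no filter, no block, each mouse left out, thinned cells, stricter mitochondrial and Malat1 limits, and other state definitions. Intervals and floors cover counting error only.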

Additional observations from a re-analysis of the deposited data

Results flagged for a closer look

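In 4 of 84 groups of 4 mice tested, 1 mouse lay far from the other three, where chance gives about 1 in 20. In G2M cells of the progenitor-like class, Cenpf, an outer kinetochore protein, was lowest in mouse 1 at 8.92 UMIs per 10000, against 10.7 to 10.9 in the other mice. Prc1, the midzone bundler, was lowest in the same mouse and state at 2.46, against 3.68 to 3.86. In non-cycling cells Cenpf was lowest in mouse 3 at 0.555 (24 UMIs), against 0.987 to 1.04. In differentiating cells Hjurp, the Cenpa chaperone, was highest in mouse 3 at 1.95 (20 UMIs), against 1.15 to 1.26.

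Barcodes with fewer than 500 genes, which enter no comparison, held 40.6 member UMIs per 10000, above the 13.5 of myeloid-like cells and below the 52.2 of all analysed cells. By mouse they held 48.7, 40.1, 34.6 and 35.7, against 45.7, 52.5, 49.2 and 58.9 in analysed cells, so mouse 1 was higher in the low-gene barcodes and the other three were lower. They were left out for their gene number, and whether they are damaged tumour cells or free RNA was not tested.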

How the results depend on the processing

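The counts of members higher in G2M cells moved little over the 15 alternatives, from 37 to 38 against non-cycling cells and from 33 to 38 against S cells. Leaving out each mouse gave 38 to 38 and 37 to 38 there, 26 to 30 for S against non-cycling cells (28 with all mice), 28 to 37 for differentiating cells (37), 0 to 10 for astroglia-like (7), 9 to 28 for oligodendrocyte-lineage-like (20) and 7 to 16 for myeloid-like cells (18). Counts over all genes moved too as each mouse was left out. They were 475 to 642 for differentiating cells (700 with all mice) and 20 to 125 for astroglia-like (107). For oligodendrocyte-lineage-like cells they were 179 to 709 (542), and for myeloid-like cells 318 to 512 (663). Of S against non-cycling cells, scanpy scores gave 18 of 24 tested members, with 418 of 4897 genes higher, against 715 of 6386 in the main fit. DESeq2 called 24 members lower in differentiating, 0 in astroglia-like, 13 in oligodendrocyte-lineage-like and 8 in myeloid-like cells. Over all genes it called 276, 23, 279 and 271 lower in the same order. Restricting both sides to non-cycling cells, which tests fewer members, gave 2, 0, 1 and 0 in the same order, and G2M cells of both classes gave 2 for differentiating cells. With no replicate block, so without pairing by mouse, 31 members were called in differentiating, 1 in astroglia-like and 9 in oligodendrocyte-lineage-like cells. Cells of at most 5% mitochondrial UMIs, with 3 mice left in each fit, gave 3 and 6 there. Without TMM factors 11 members were called in astroglia-like and 11 in myeloid-like cells, and without the filter on low counts 11 in astroglia-like cells. Cdc20 in S against non-cycling cells, not called at 0.00, turned positive at 0.052 without TMM, 0.016 without the filter, 0.063 at the stricter mitochondrial limit, 0.31 without cells low in Malat1, 0.070 with states from state-gene UMIs and 0.62 with scanpy scores, and ran from -0.14 to 0.11 as each mouse was left out. Cenpe there was -0.090 in thinned cells. The cause of these changes was not tested. Over all genes, without the block, the counts higher in G2M cells were 430 and 211, against 807 and 499 with it. Thinned cells could not be fitted for the astroglia-like, oligodendrocyte-lineage-like and myeloid-like classes, nor the Malat1 limit for the astroglia-like class, for want of mice with enough cells. Members with few UMIs, such as Anln and Ttk, are limited by depth.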
